A study of Homo sapiens with 12 samples.

Results

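The genes described here are the core of the hypoxia-inducible factor (HIF) machinery, 10 genes of the 51141 symbols in the table. They were chosen by name for their role, with no measured value in the rule. HIF1A, EPAS1 and ARNT encode the subunits of HIF. VHL, EGLN1, EGLN2 and HIF1AN encode proteins that sense oxygen or act on the alpha subunits. EP300, CREBBP and CITED2 encode coactivators of HIF and a competitor for them. All 10 passed the filter on low counts, which left 14447 genes.

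Messenger RNA was sequenced from EA.hy926 cells, a single human line that behaves as endothelium and descends from a hybrid of an umbilical vein cell and the A549 lung carcinoma line. There were 12 libraries in 4 groups of 3. TEPA+hypoxia cells received 50 µM TEPA, a polyamine that chelates copper, for 16 h and then 8 h more of culture in 1% oxygen. Hypoxia cells spent 8 h in 1% oxygen without TEPA. TEPA cells received the chelator at 50 µM for 16 h and spent the further 8 h at normal oxygen. Control cells had neither treatment. Per the series title, the question was how copper bears on the activity of HIF-1, so the comparisons ask how low oxygen changed these transcripts with and without the chelator, and how the chelator changed them at each oxygen level.

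HIF is a pair of an alpha subunit and a beta subunit. At normal oxygen, prolyl hydroxylases of the EGLN family mark the alpha subunit, the VHL ubiquitin ligase binds the mark, and the alpha subunit is degraded. HIF1AN adds another hydroxyl group that keeps the alpha subunit from binding EP300 and CREBBP. At low oxygen these steps slow, the alpha subunit joins ARNT, and the pair binds DNA at short sites with the core ACGTG or GCGTG. This control acts mostly on protein, which was not measured here, so the values below are transcript levels only.

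EGLN1, EGLN2 and CITED2 were the members whose promoters held the core ACGTG, in a window of 300 bases that runs from 250 bases before to just past the start of the RefSeq gene (build GRCh38.p14). HIF1A, EPAS1 and CREBBP held GCGTG and not ACGTG, and ARNT, HIF1AN and EP300 held neither on either strand. VHL was not matched. Of 27305 promoters of the same length, 21.6% held ACGTG and 48.4% held ACGTG or GCGTG, so a match is a description and not a site. The stretches around 5 matches are shown because these genes are set against each other below. Each is the gene's own strand, 5′ to 3′, with the core in capitals. EGLN1 is from chr1:231422284-231422312 (minus strand), with the core starting 13 bases before the RefSeq gene start. EGLN2 is from chr19:40799131-40799159 (plus strand). CITED2 is from chr6:139374784-139374812 (minus strand). In EGLN2 and CITED2 the core overlaps its own match on the other strand, because a C stands before it. HIF1A is from chr14:61695297-61695325 and EPAS1 from chr2:46297278-46297306, both on the plus strand. The gene spans given further on are from GENCODE, whose outermost starts differ from the RefSeq starts. The EGLN1, EGLN2 and EPAS1 stretches therefore lie inside those spans.
EGLN1: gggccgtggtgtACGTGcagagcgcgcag
EGLN2: cggggcgcggtcACGTGcccaccgggcga
CITED2: agcctctgcagcACGTGccgcgggcggcg
HIF1A: tggctgagagcgGCGTGggctggggtggg
EPAS1: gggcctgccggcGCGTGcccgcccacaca

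Library totals ran from 13406858 counts in hypoxia 3 to 24778944 in TEPA 1. Levels are given in CPM, the usual unit of depth-scaled counts, computed with edgeR's TMM factors. Hypoxia 2 and 3 stood apart from the other 10 libraries, hypoxia 1 included. Their TMM factors were 0.772 and 0.838, against 1.03 to 1.08 in the others. The summed level of the 8 endothelial markers was 4952 and 4513 CPM in hypoxia 2 and 3, against 2943 to 3456 CPM in the other 10 libraries. PECAM1 (431 to 675 CPM), CDH5, TIE1, ENG and NOS3 were present in every library. ENG carried the higher sum, at 2467 CPM on average in hypoxia cells and 963 CPM in control cells. PECAM1 (-0.41), CDH5 (-0.74), KDR (-1.29) and TEK (-2.04) were called lower in hypoxia against control on the log2 scale, and ENG (1.36) and NOS3 (0.34) higher. The 6 epithelial markers summed to 18184 and 15539 CPM in hypoxia 2 and 3, against 5440 to 7690 CPM elsewhere, nearly all of it keratin transcripts, while CDH1 was at 0. The 6 fibroblast and mural markers summed to 45.0 and 53.3 CPM in hypoxia 2 and 3, against 82.4 to 107 CPM elsewhere, with COL3A1 at 0. Most of that sum was RGS5, called lower in hypoxia against control (-0.65), while ACTA2, the next most abundant, was called higher (0.62). The 6 leukocyte markers stayed between 3.75 and 6.26 CPM, with PTPRC at 0. The part of these differences in the results was not tested. Results that rest on hypoxia 2 and 3 are therefore given with and without them. In the fit without them, called the 10-library fit below, the hypoxia group is 1 library, assumed to vary like the other groups. Fewer cells of a type and less RNA per cell cannot be told apart in these bulk samples.

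**Figure D1:**
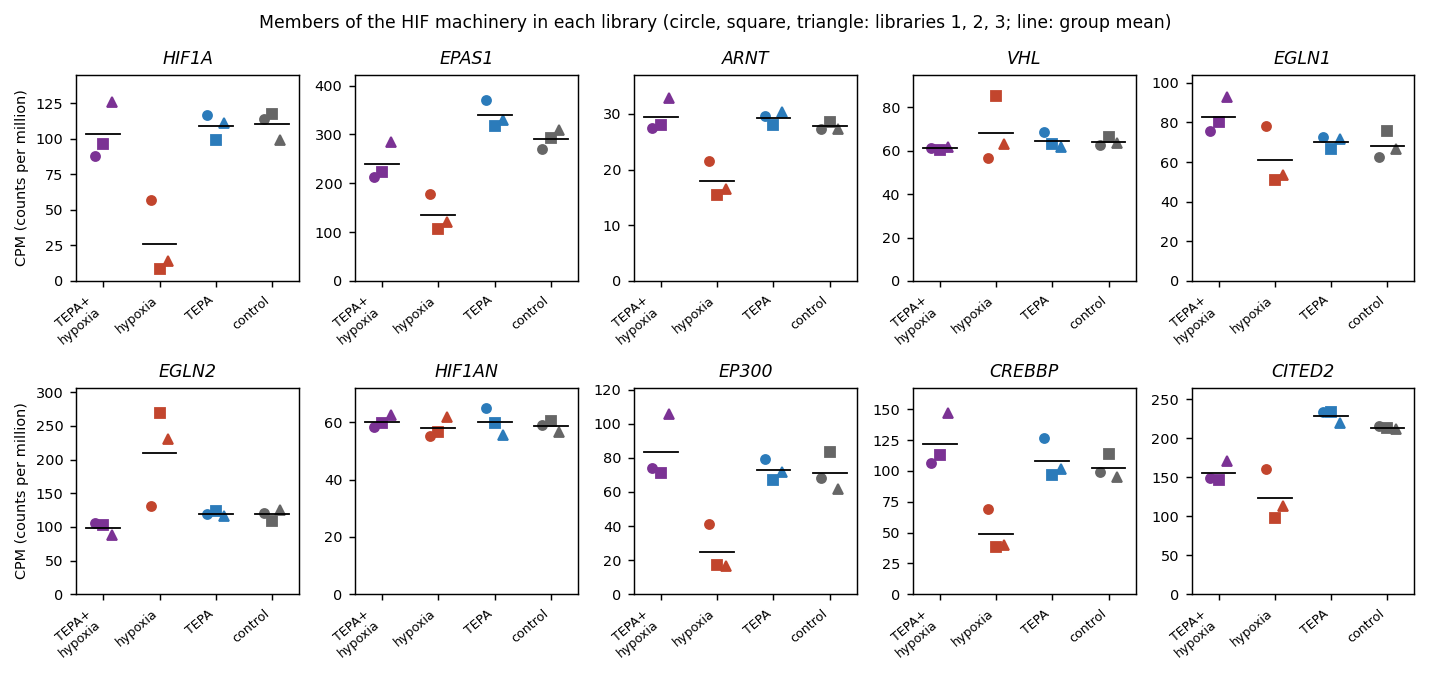
Level of each of the 10 genes in every library (y axis, CPM from 0; groups on the x axis; circle, square and triangle are libraries 1, 2 and 3; the line is the group mean). HIF1A, EPAS1, ARNT, EP300, CREBBP and CITED2 lay lower in all 3 hypoxia libraries than in any control library, with hypoxia 1 nearer to control than hypoxia 2 and 3, and EGLN2 lay higher.

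Set against transcript length, the members spanned a wide range in control cells. On the scale of CPM per kb of the longest coding transcript, CITED2 stood highest at 90.6 ± 0.907 (SD, n = 3), followed by EPAS1 at 56.2 ± 3.84, EGLN2 at 42.0 ± 2.96, HIF1A at 27.8 and VHL at 17.1. EGLN1 at 9.63 and CREBBP at 9.51 overlapped between libraries. EP300 at 7.42, ARNT at 5.68 and HIF1AN at 4.51 closed the order. All other neighbours in this order were apart in every control library. In hypoxia cells EGLN2 stood first by group mean, at 74.6 CPM per kb, with libraries overlapping those of CITED2 at 52.7. In hypoxia 1 CITED2 stood above EGLN2, at 68.1 against 46.4 CPM per kb. In TEPA and TEPA+hypoxia cells the first 5 genes kept their control order by group mean. In TEPA+hypoxia cells EGLN2 and HIF1A overlapped, with HIF1A at 31.9 and EGLN2 at 31.3 CPM per kb in TEPA+hypoxia 3. EPAS1, the alpha subunit first described in endothelium, thus exceeded HIF1A per kb in every library. The level of HIF1AN per kb rests on an annotated transcript of 13011 nucleotides, the longest of the 10.

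The transcripts of both alpha subunits were lower in 1% oxygen. HIF1A (chromosome 14, 61695513 to 61748259 on the plus strand, GRCh38) encodes HIF-1 alpha, the subunit found in nearly all cell types. It had 56.7, 8.08 and 14.0 CPM in hypoxia 1, 2 and 3, against 114, 117 and 99.3 CPM in the control libraries. All hypoxia libraries lay below all control libraries, and hypoxia 2 and 3 lay far below hypoxia 1. The 110 counts behind the hypoxia 2 value give an exact Poisson 95% interval of 6.64 to 9.74 CPM, which covers counting error only. The log2 fold change of HIF1A was -2.06 ± 0.52 (SE, adjusted p = 0.00854, edgeR quasi-likelihood F-test over all tested genes). In the 10-library fit it was -0.96 ± 0.17 (adjusted p = 0.0327), with hypoxia 1 at 0.515 times the control mean. Leaving out hypoxia 1 instead gave -3.37.

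EPAS1 (chromosome 2, 46293667 to 46386703, plus strand) encodes HIF-2 alpha, which is prominent in endothelium. It had 177, 105 and 121 CPM in hypoxia cells, against 269.9, 292 and 309.5 CPM in control cells. The groups did not overlap, and hypoxia 1 again lay between the rest of its group and control. Its log2 fold change was -1.11 ± 0.18 (adjusted p = 0.00601), and -0.71 ± 0.14 in the 10-library fit (adjusted p = 0.0483). Of the 10 genes, HIF1A and EPAS1 were the ones called in both fits.

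ARNT (chromosome 1, 150809705 to 150876768, minus strand) encodes the beta subunit, a partner that oxygen does not destabilise. It had 21.6, 15.5 and 16.6 CPM in hypoxia cells, against 27.3, 28.6 and 27.3 CPM in control cells. Its libraries did not overlap either, and the log2 fold change was -0.63 ± 0.13 (adjusted p = 0.00601). It was -0.36 ± 0.13 in the 10-library fit and was not called there (adjusted p = 0.144).

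In all, hypoxia against control gave 6 members called lower and 1 called higher among the 10, in the fit of all 12 libraries. Of all genes tested, 27.8% were called lower and 29.4% higher in that fit. The groups did not overlap in any of the 7 members called, as in 28.2% of all genes on the lower side and 27.4% on the higher. The median log2 fold change was -0.71 over the members and -0.01 over all tested genes. The 10-library fit called 2 members lower and 0 higher, where 0.230% of genes were called lower and 0.283% higher. A fit of the hypoxia and control libraries alone called 0 of the 10, with adjusted p from 0.0582 for EPAS1 to 0.0624 for HIF1A among the 7.

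Of the 4 genes for sensors and the VHL receptor, EGLN2 was the one that passed the test. EGLN1 (chromosome 1, 231363751 to 231425044, minus strand) encodes PHD2, the main prolyl hydroxylase of the alpha subunits and itself a known HIF target. It had 78.1, 50.7 and 53.6 CPM in hypoxia cells, against 62.6, 75.6 and 66.7 CPM in control cells. Hypoxia 1 lay above all control libraries while hypoxia 2 and 3 lay below them. The log2 fold change of -0.17 ± 0.16 was not called (adjusted p = 0.377, 95% interval -0.53 to 0.20). It was 0.19 ± 0.13 in the 10-library fit (adjusted p = 0.372). Without hypoxia 1 it was -0.42 ± 0.10 and was called lower (adjusted p = 0.00217).

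EGLN2 (chromosome 19, 40798996 to 40808433, plus strand) encodes PHD1, another prolyl hydroxylase. It had 131, 269.7 and 231 CPM in hypoxia cells, against 121, 109 and 126 CPM in control cells. The groups did not overlap, but hypoxia 1 lay only just above control. Its log2 fold change was 0.83 ± 0.20 (adjusted p = 0.00788), and without hypoxia 2 and 3 it was 0.14 ± 0.12 and not called (adjusted p = 0.504). EGLN2 shares 2012 nucleotides of exon with the read-through gene RAB4B-EGLN2, which had 114 to 255 counts per library, so reads may be split between them. The remaining EGLN gene, EGLN3, was listed at 0 in every library.

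VHL (chromosome 3, 10141008 to 10152220, plus strand) is the substrate receptor of the ubiquitin ligase that binds hydroxylated alpha subunits. It had 56.6, 84.9 and 63.2 CPM in hypoxia cells, against 62.5, 66.4 and 63.3 CPM in control cells. Its libraries overlapped, and the log2 fold change was 0.09 ± 0.13 (adjusted p = 0.574, 95% interval -0.22 to 0.40). HIF1AN (chromosome 10, 100529072 to 100559998, plus strand) encodes the asparagine hydroxylase FIH. It had 55.1, 56.6 and 61.7 CPM in hypoxia cells, against 58.9, 60.5 and 56.4 CPM in control cells. This was the narrowest spread of the 10 genes over all 12 libraries, with a log2 fold change of -0.02 ± 0.09 (adjusted p = 0.861, 95% interval -0.24 to 0.20). HIF1AN overlaps the antisense gene NDUFB8 over 325 nucleotides of exon. NDUFB8 had 263 and 236 CPM in hypoxia 2 and 3, and no source used here gives the strand setting of the authors' counting.

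The coactivator transcripts were lower together. EP300 (chromosome 22, 41091786 to 41180079, plus strand) encodes p300, a histone acetyltransferase recruited by the alpha subunits. It had 41.0, 17.1 and 16.8 CPM in hypoxia cells, against 68.1, 83.5 and 61.9 CPM in control cells. Hypoxia 2 and 3 lay at 0.241 and 0.235 times the control mean, and hypoxia 1 at 0.576 times. The log2 fold change of EP300 was -1.51 ± 0.31 (adjusted p = 0.00601). CREBBP (chromosome 16, 3725054 to 3880726, minus strand) encodes the related acetyltransferase CBP. It had 69.0, 38.1 and 39.8 CPM in hypoxia cells, against 99.5, 114 and 94.9 CPM in control cells, again without overlap. Its log2 fold change was -1.07 ± 0.22 (adjusted p = 0.00601). Neither was called in the 10-library fit, with EP300 at -0.80 (adjusted p = 0.0842) and CREBBP at -0.58 (adjusted p = 0.109).

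CITED2 (chromosome 6, 139371807 to 139374620, minus strand) encodes a protein that competes with the alpha subunits for EP300 and CREBBP and is a known HIF target. It had 160.4, 98.4 and 114 CPM in hypoxia cells, against 216, 213 and 212 CPM in control cells. The control libraries lay close together and all 3 hypoxia libraries lay below them. Its log2 fold change was -0.78 ± 0.15 (adjusted p = 0.00601), and -0.41 ± 0.10 without hypoxia 2 and 3 (adjusted p = 0.0679).

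**Figure D2:**
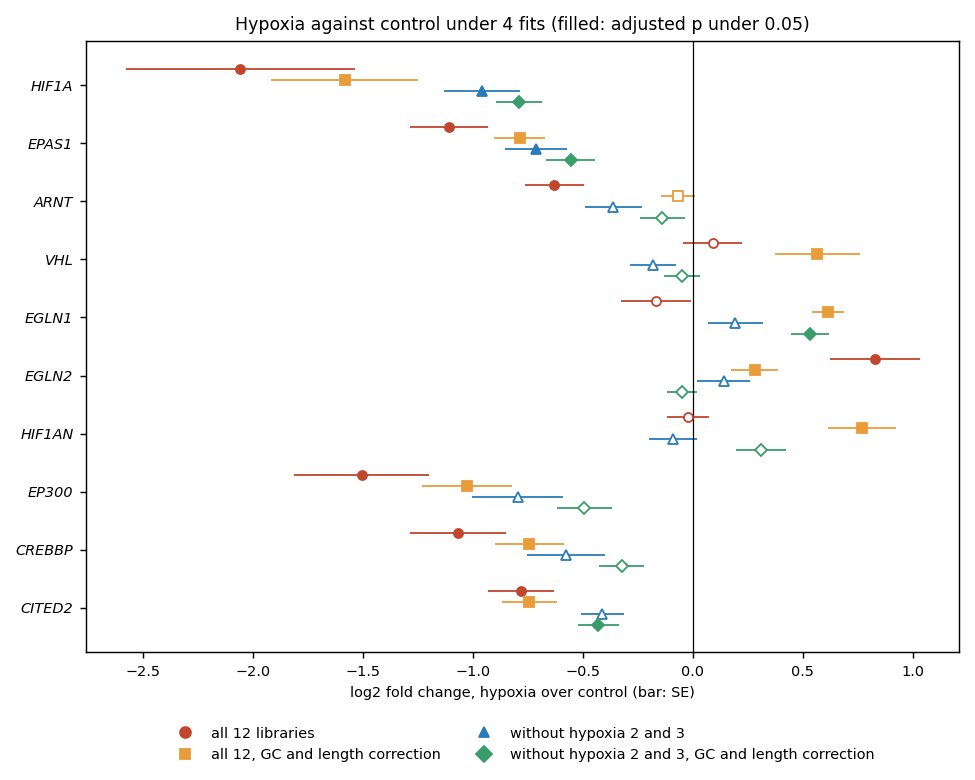
Log2 fold change of each gene in hypoxia over control cells (x axis; bars are SE; filled symbols have an adjusted p under 0.05) under 4 fits. HIF1A and EPAS1 were lower and called in all 4 fits, from -2.06 to -0.79 for HIF1A and from -1.11 to -0.56 for EPAS1, while EGLN1, EGLN2, HIF1AN and VHL took either sign.

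Differences by gene length and GC content moved with hypoxia 2 and 3. Over the 12992 tested genes with both values, the median log2 difference from the control mean was 1.03 in hypoxia 2 and 0.85 in hypoxia 3 for the shortest 20% of genes, and -0.85 and -0.82 for the longest 20%. The medians in hypoxia 1 were 0.23 and -0.26, and in TEPA+hypoxia 3 they were -0.24 and 0.30, and in the other 8 libraries they lay between -0.12 and 0.12. The 20% of genes with the lowest GC content and the 20% with the highest gave -0.81 and 0.96 in hypoxia 2 and -0.78 and 0.84 in hypoxia 3. The members differ widely in both, from 2354 nucleotides in CITED2 to 13011 in HIF1AN and from 36.4% GC in HIF1A to 63.0% in EGLN2. A fit that corrects each library for both was therefore set beside the first, which tested 14447 genes, over these 12992 genes. In it HIF1A (-1.58), EPAS1 (-0.79), EP300 (-1.03), CREBBP (-0.74) and CITED2 (-0.74) were still called lower in hypoxia cells, where 17.3% of genes were. ARNT was not, at -0.06. All 7 members called in the first fit lay nearer to 0 in this one. EGLN1 (0.62), EGLN2 (0.28), HIF1AN (0.77) and VHL (0.57) were called higher, where 26.8% of genes were. With the correction in the 10-library fit, EGLN1 was called higher at 0.53 ± 0.08 (adjusted p = 0.00596), and HIF1A at -0.79, EPAS1 at -0.56 and CITED2 at -0.43 were called lower. In that fit 1.21% of genes were called higher and 0.953% lower. The sign of EGLN1 in hypoxia cells thus changed with the correction alone and with the libraries alone, that of HIF1AN with the correction, and that of EGLN2 when both were changed. VHL was at 0.09 in the first fit, 0.57 with the correction, -0.18 in the 10-library fit and -0.047 with both.

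With TEPA present, none of the 10 transcripts passed the test between low and normal oxygen when all libraries were fitted. In TEPA+hypoxia against TEPA edgeR called 0 of the 10 members over all 12 libraries, where 0.0623% of genes were called higher and 0.0346% lower. Of the 10, EPAS1 and CITED2 had an unadjusted p under 0.05. EPAS1 had 214, 222 and 285 CPM in TEPA+hypoxia cells, against 371, 318 and 330.3 CPM in TEPA cells. All 3 TEPA+hypoxia libraries lay below all 3 TEPA libraries. The log2 fold change was -0.50 ± 0.18 (adjusted p = 0.50), and -0.49 ± 0.10 in the fit without hypoxia 2 and 3, where it was called (adjusted p = 0.0225). CITED2 had 149, 146 and 172 CPM in TEPA+hypoxia cells, against 234, 234 and 219 CPM in TEPA cells. These groups did not overlap either, with a log2 fold change of -0.56 ± 0.15 (adjusted p = 0.285), and -0.54 ± 0.07 without hypoxia 2 and 3 (adjusted p = 0.00123). Hypoxia 2 and 3 are in neither group of this comparison and enter it through the shared estimate of spread, the scaling and the filter, which left 15195 genes without them. The common dispersion was 0.0339 with them and 0.00850 without. In the smaller fit 0.842% of genes were called lower and 1.32% higher, and the members called were EPAS1 and CITED2, both lower. When that fit was also corrected for length and GC content, HIF1A (-0.25), EPAS1 (-0.53), EGLN2 (-0.22) and CITED2 (-0.55) were called lower, where 6.02% of genes were.

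HIF1A had 87.6, 96.5 and 126 CPM in TEPA+hypoxia cells, against 117, 99.1 and 111 CPM in TEPA cells. The libraries overlapped, with a log2 fold change of -0.08 ± 0.49 (adjusted p = 0.981, 95% interval -1.22 to 1.06). The interval narrows without hypoxia 2 and 3, where the value was -0.07 ± 0.11. EGLN1 had 75.4, 80.1 and 92.6 CPM in TEPA+hypoxia cells, against 72.5, 66.7 and 71.7 CPM in TEPA cells. All 3 of its TEPA+hypoxia libraries lay above TEPA, with a log2 fold change of 0.23 ± 0.16 that was not called (adjusted p = 0.798). EGLN2 had 105, 103 and 88.2 CPM in TEPA+hypoxia cells, against 119.8, 124 and 116 CPM in TEPA cells. Its groups did not overlap, and the log2 fold change of -0.28 ± 0.20 was not called (adjusted p = 0.802). Across all tested genes, the libraries of these groups failed to overlap in 12.5% with TEPA+hypoxia higher and in 18.0% with it lower. The remaining members (ARNT, VHL, HIF1AN, EP300 and CREBBP) overlapped between the groups. Their log2 fold changes were 0.20 for EP300, 0.17 for CREBBP, 0.0036 for ARNT, -0.08 for VHL and -0.00092 for HIF1AN.

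**Figure D3:**
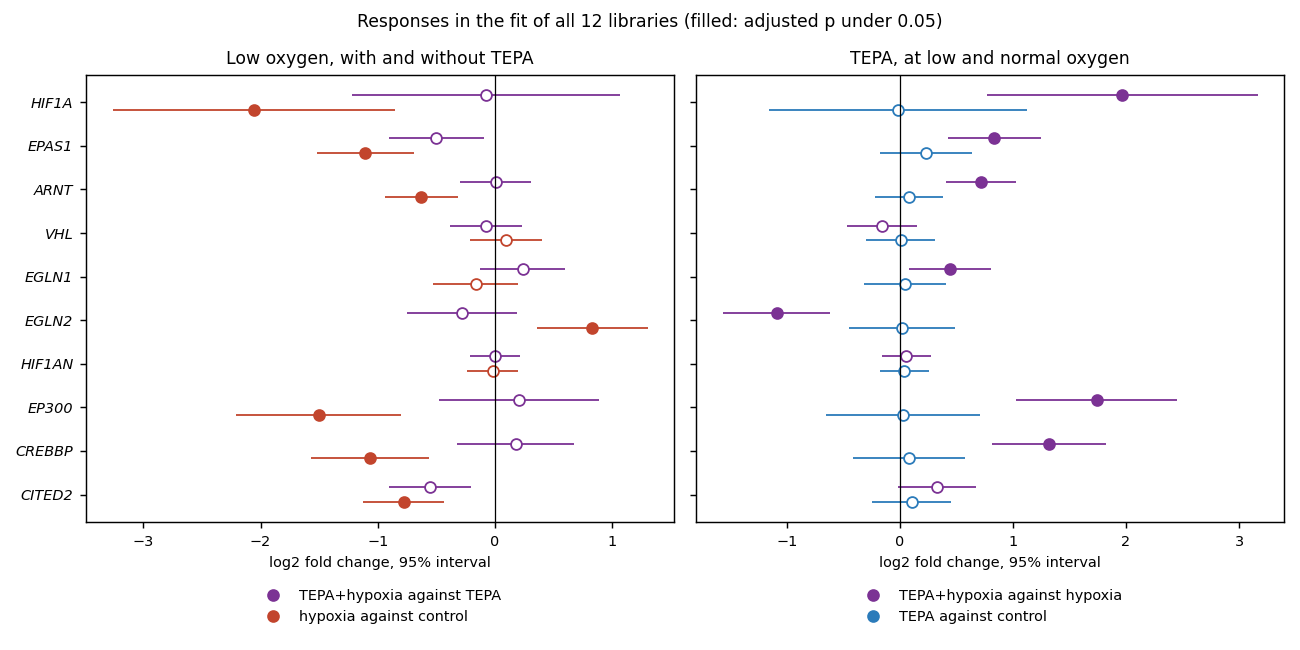
Log2 fold change with its 95% interval for each gene (x axis), for low oxygen with and without TEPA (left) and for TEPA at low and at normal oxygen (right), from the fit of all 12 libraries. Filled points have an adjusted p under 0.05: 7 genes in hypoxia against control, 0 in TEPA+hypoxia against TEPA, 7 in TEPA+hypoxia against hypoxia and 0 in TEPA against control.

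At normal oxygen none of the 10 transcripts passed the test for the chelator. Over all 12 libraries, edgeR called 0 of the 10 members and 0 of all tested genes in TEPA against control. There 289 genes had an unadjusted p under 0.05. Hypoxia 2 and 3 are in neither group here and again enter through the shared estimate of spread. The common dispersion was 0.0339 with them and 0.00850 without. The SEs and intervals below come from the fit with them. DESeq2 called 1 gene higher and 5 lower, and 0 members. EPAS1 had 371, 318 and 330.3 CPM in TEPA cells, against 269.9, 292 and 309.5 CPM in control cells. All 3 TEPA libraries were higher, by a log2 fold change of 0.23 ± 0.18 that was not called (adjusted p = 1.00, 95% interval -0.18 to 0.63). CITED2 had 234, 234 and 219 CPM in TEPA cells, against 216, 213 and 212 CPM in control cells, also without overlap, at 0.10 ± 0.15. Over all genes 6.64% had all 3 TEPA libraries above control. HIF1A averaged 109 ± 8.996 CPM in TEPA cells and 110.2 ± 9.57 CPM in control cells (SD, n = 3 each), a log2 fold change of -0.02 with a 95% interval of -1.16 to 1.13. The log2 fold changes of the other 7 members were 0.08 for ARNT and CREBBP, 0.04 for EGLN1 and HIF1AN, 0.03 for EP300, 0.02 for EGLN2 and 0.01 for VHL.

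In 1% oxygen, 6 of the 10 transcripts were called higher with the chelator than without it, when all 12 libraries were fitted without correction. Among them were all 3 subunits and both acetyltransferases. TEPA+hypoxia against hypoxia gave 6 members called higher and 1 called lower, where 30.9% of all genes were called higher and 30.6% lower. Both comparisons with hypoxia cells use the same 3 hypoxia libraries, so their values are not independent of each other. HIF1A averaged 103 ± 20.1 CPM in TEPA+hypoxia cells and 26.3 ± 26.6 CPM in hypoxia cells (SD, n = 3 each), a log2 fold change of 1.97 ± 0.52 (adjusted p = 0.00770). EP300 averaged 83.6 ± 19.04 CPM in TEPA+hypoxia cells and 24.9 ± 13.9 CPM in hypoxia cells, a log2 fold change of 1.74 ± 0.31 (adjusted p = 0.00217). CREBBP averaged 122 ± 21.4 CPM in TEPA+hypoxia cells and 49.0 ± 17.3 CPM in hypoxia cells, a log2 fold change of 1.32 ± 0.22 (adjusted p = 0.00217). For these 3 genes every TEPA+hypoxia library lay above every hypoxia library. The same held for EPAS1 at 0.83 ± 0.18 (adjusted p = 0.00298) and ARNT at 0.71 ± 0.13 (adjusted p = 0.00219). Of all genes, 32.2% had every TEPA+hypoxia library above every hypoxia library and 30.5% had every one below. EGLN1 was called higher at 0.44 ± 0.16 (adjusted p = 0.0298), with hypoxia 1 inside the range of the TEPA+hypoxia libraries, and it was called higher in 13 of 22 alternatives. HIF1A lost its call in a fit of these groups alone (adjusted p = 0.0545), and was at 3.27 without hypoxia 1. ARNT lost its call with the correction for length and GC content, with and without hypoxia 2 and 3. EPAS1 and EGLN2 lost theirs with the correction in the 10-library fit. With the correction over all 12 libraries EGLN1 was at -0.46. EGLN2 averaged 98.7 ± 9.24 CPM in TEPA+hypoxia cells and 211 ± 71.7 CPM in hypoxia cells, a log2 fold change of -1.09 ± 0.21 (adjusted p = 0.00219).

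CITED2 did not pass the test between these groups. It averaged 156 ± 13.8 CPM in TEPA+hypoxia cells and 124 ± 32.3 CPM in hypoxia cells, with hypoxia 1 inside the TEPA+hypoxia range. The log2 fold change of 0.33 ± 0.15 was not called (adjusted p = 0.0786), nor were VHL at -0.16 and HIF1AN at 0.06. Without hypoxia 1 CITED2 was called higher at 0.58 and VHL lower at -0.26. In the 10-library fit CITED2 was at -0.04 ± 0.10 (adjusted p = 0.824). There HIF1A (0.87, adjusted p = 0.0183), EP300 (1.04, adjusted p = 0.0183), CREBBP (0.83, adjusted p = 0.0189), ARNT (0.45, adjusted p = 0.0361) and EPAS1 (0.45, adjusted p = 0.0476) were called higher and EGLN2 (-0.40, adjusted p = 0.0410) lower. Of all genes, 7.98% were called higher and 7.17% lower in this fit. EGLN1 was then at 0.09 (adjusted p = 0.657).

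The interaction asks whether the response to low oxygen differed with the chelator, as the response with TEPA minus the response without it. Over all 12 libraries, ARNT (0.63 ± 0.19, adjusted p = 0.0274), HIF1A (1.98 ± 0.71, adjusted p = 0.0464), EP300 (1.71 ± 0.42, adjusted p = 0.0236) and CREBBP (1.24 ± 0.31, adjusted p = 0.0236) were called higher. EGLN2 (-1.11 ± 0.29, adjusted p = 0.0236) was called lower. Of all genes 17.3% were called higher and 21.5% lower. EPAS1 at 0.61 ± 0.25 (adjusted p = 0.0696) and CITED2 at 0.22 ± 0.21 (adjusted p = 0.398) were not called, and both had lower libraries at low oxygen with and without TEPA. EGLN1 at 0.40, VHL at -0.17 and HIF1AN at 0.02 were not called either. Without hypoxia 1, EPAS1 (0.89), EGLN1 (0.65) and CITED2 (0.48) were called higher, and HIF1A was at 3.29. In the 10-library fit edgeR called 0 members and 0 genes for the interaction, with 4117 genes at an unadjusted p under 0.05. HIF1A was then at 0.89 (adjusted p = 0.0654), EP300 at 1.01 (adjusted p = 0.0654), CREBBP at 0.76 (adjusted p = 0.0729), EGLN2 at -0.41 (adjusted p = 0.107) and ARNT at 0.38 (adjusted p = 0.142). Leaving out control 1, control 2, hypoxia 3, TEPA 2 or TEPA+hypoxia 3 alone also left 0 members called for the interaction. The call of HIF1A held in 6 of 21 alternatives and that of ARNT in 9. Neither held with the correction for length and GC content over all 12 libraries.

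Ratios between members of 1 library do not depend on how that library was scaled. They were not corrected for the differences by length and GC content that moved with hypoxia 2 and 3. EGLN2 has 2821 nucleotides and 63.0% GC, and EGLN1 has 7097 nucleotides and 44.15% GC. EPAS1 has 52.6% GC and HIF1A 36.4%. The part of these differences in the ratios was not tested, and separation in other pairs of genes was not counted. The ratio of EPAS1 to ARNT, in CPM per kb, was 7.37, 7.53 and 8.20 in TEPA+hypoxia cells, against 11.9, 10.7 and 10.3 in TEPA cells. It was 7.75, 6.43 and 6.93 in hypoxia cells, against 9.34, 9.66 and 10.7 in control cells. All 6 libraries at low oxygen thus lay below all 6 at normal oxygen, hypoxia 1 included. For HIF1A to ARNT the ratio was 3.94, 4.27 and 4.74 in TEPA+hypoxia cells, against 4.87, 4.37 and 4.53 in TEPA cells. Hypoxia cells had 3.24, 0.644 and 1.04, against 5.14, 5.07 and 4.50 in control cells. This ratio did not set all libraries at low oxygen apart, because TEPA+hypoxia and TEPA cells overlapped. The ratio of EPAS1 to HIF1A was 1.87, 1.76 and 1.73 in TEPA+hypoxia cells, against 2.43, 2.45 and 2.28 in TEPA cells. It was 2.39, 9.99 and 6.65 in hypoxia cells, against 1.82, 1.90 and 2.39 in control cells, so without TEPA it lay far from the rest only in hypoxia 2 and 3. The ratio of EGLN2 to EGLN1 was 3.51, 3.22 and 2.40 in TEPA+hypoxia cells, against 4.16, 4.66 and 4.07 in TEPA cells. It was 4.21, 13.4 and 10.8 in hypoxia cells, against 4.84, 3.64 and 4.74 in control cells, with hypoxia 1 inside the control range. The ratio of CREBBP to EP300 varied least, from 1.21 to 1.49 in every library but hypoxia 2 and 3, where it was 1.98 and 2.11.

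**Figure D4:**
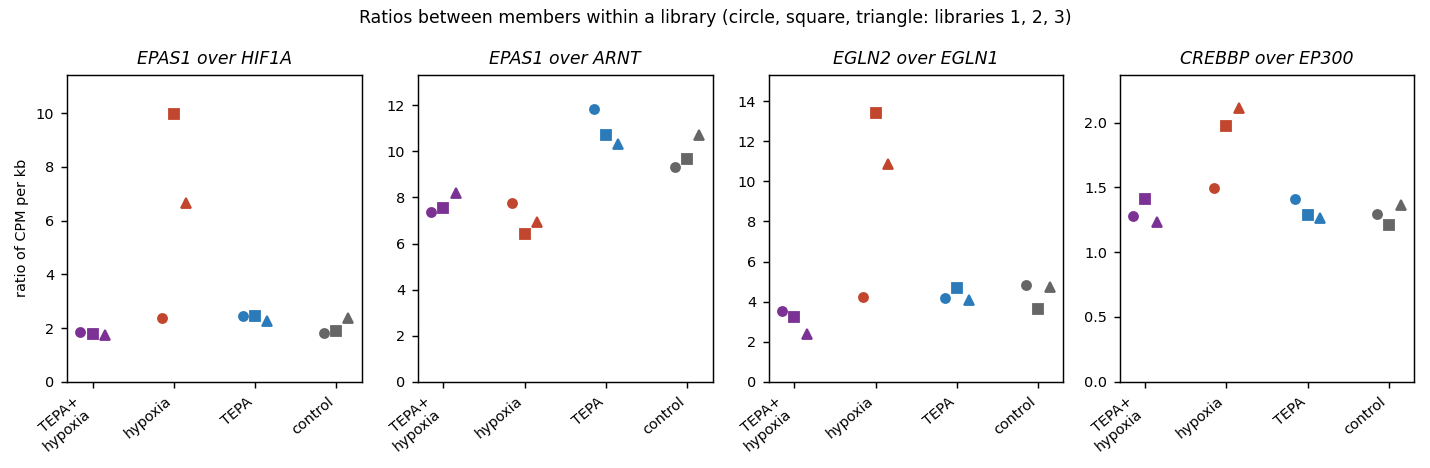
Ratios between members within each library (y axis, ratio of CPM per kb, from 0; groups on the x axis; circle, square and triangle are libraries 1, 2 and 3). The ratio of EPAS1 to ARNT lay between 6.43 and 8.20 in the 6 libraries at 1% oxygen and between 9.34 and 11.9 in the 6 at normal oxygen. The ratios of EPAS1 to HIF1A and of EGLN2 to EGLN1 were set apart by hypoxia 2 and 3. The ratios were not corrected for differences by length and GC content between libraries.

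The HIF1A locus also carries antisense genes. HIF1A-AS2 had 20, 8 and 6 counts in hypoxia cells, against 54, 73 and 30 counts in control cells. All hypoxia libraries were lower, and its log2 fold change of -1.74 ± 0.54 was called (adjusted p = 0.0184). In TEPA+hypoxia cells it had 40, 41 and 108 counts, a log2 fold change of 2.09 over hypoxia cells (adjusted p = 0.00654). Neither was called in the 10-library fit, with -1.10 (adjusted p = 0.343) and 1.46 (adjusted p = 0.139). HIF1A-AS1, which overlaps HIF1A over 117 nucleotides, had 1 to 8 counts and was not tested. Without the strand setting, reads of HIF1A and of an overlapping antisense gene cannot be told apart.

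Around VHL, the other parts of its ubiquitin ligase and the enzymes that act with it form a list of 11 genes. In hypoxia cells 4 of 11 were called higher and 3 lower, where 29.4% of all genes were called higher and 27.8% lower. Those higher were TCEB2 (elongin B, 1.82 ± 0.36), NEDD8 (1.08), RBX1 (the RING subunit, 0.88) and TCEB1 (elongin C, 0.62). Those lower were CUL2 (the scaffold cullin, -0.65) and the deubiquitinases USP20 (-0.74) and USP33 (-0.90). The median over the list was -0.14. In the 10-library fit that median was -0.01, beside -0.0027 over all tested genes. In TEPA+hypoxia against hypoxia the same 7 genes were called with the opposite sign, 3 higher and 4 lower, where 30.9% and 30.6% of all genes were, and in TEPA+hypoxia against TEPA none was called.

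A list of other basic helix-loop-helix PAS proteins, relatives of the HIF subunits, also took in the remaining HIF genes, EGLN3 included. Of its 11 genes 8 were tested. In hypoxia cells 6 of the 8 were called lower, where 27.8% of all genes were, with ARNTL (-0.79), ARNTL2 (-0.52), CLOCK (-0.80) and NPAS2 (-1.04) from the circadian clock, AHR, the dioxin receptor (-1.36), and SIM1 (-1.31). AHRR, a repressor of AHR, was called higher at 0.48. The median over the 8 was -0.79. It was -0.36 in the 10-library fit, beside -0.0027 over all tested genes. Of the other HIF genes in this list, EGLN3 was at 0, HIF3A had at most 1 count and ARNT2 at most 5 in a library. None of them was tested.

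The list of proteins that set the stability of the alpha subunits outside VHL held 12 genes, of which 5 were called higher and 3 lower in hypoxia cells, where 29.4% and 27.8% of all genes were. GNB2L1, which encodes RACK1, an oxygen-independent route to degradation, was at 1.02, STUB1, the ubiquitin ligase CHIP, at 1.31, COMMD1, a copper-handling protein that also restrains HIF, at 1.16, OS9 at 0.61 and SIAH2, a ligase for EGLN proteins, at 0.27. GSK3B, a kinase (-0.71), FBXW7, a ligase subunit (-0.59), and SENP1, a SUMO protease (-0.37), were called lower. Over the 12 the median in hypoxia against control was -0.20, and it was 0.08 in the fit without hypoxia 2 and 3. In that fit TEPA+hypoxia against TEPA called HSP90AA1, a chaperone of the alpha subunit, higher at 0.38 (adjusted p = 0.0167) and STUB1 lower at -0.47 (adjusted p = 0.0372).

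Of 13 other coactivators and corepressors 11 were tested, with 5 called lower and 3 higher in hypoxia cells, where 27.8% and 29.4% of all genes were. The p160 coactivators NCOA3 (-2.88) and NCOA2 (-1.39), the acetyltransferase KAT2B (-2.02), and MED1 (-1.09) and CDK8 (-0.80) of the mediator complex were called lower in hypoxia cells. KAT2A (0.70), KAT5 (0.47) and CITED4, a relative of CITED2 (1.82), were called higher. CITED4 averaged 114 ± 63.7 CPM in hypoxia cells and 32.3 ± 8.15 CPM in control cells (SD, n = 3 each), with 44.1 CPM in hypoxia 1. In the 10-library fit the list had 1 call in hypoxia against control, the HIF-induced repressor BHLHE40, higher at 0.95 ± 0.14 (adjusted p = 0.0134). BHLHE40 was also the list's call in TEPA+hypoxia against TEPA in that fit, higher at 0.94 ± 0.10 (adjusted p = 0.000556).

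Known target genes of HIF were measured beside the machinery. Of 19 tested targets, 10 were called higher and 1 lower in hypoxia against control, where 29.4% of all genes were called higher and 27.8% lower. The median log2 fold change of the targets was 0.30. Those called higher were ANGPTL4 (2.93 ± 0.24), a secreted regulator of lipoprotein lipase, DDIT4 (1.56), an inhibitor of mTORC1, SLC2A1 (0.78), the glucose transporter GLUT1, ANKRD37 (2.16), ADM (1.13), ENO2 (1.04), PFKFB4 (0.96), BNIP3 (0.83), BNIP3L (0.30) and LDHA (0.29). PFKFB3 (-3.04), a regulator of glycolysis, was the target called lower. It lay near the floor of 3 counts, with a mean of 0.86 CPM in control cells and 0.086 CPM in hypoxia cells. Without hypoxia 2 and 3 it was at -1.70. The 10-library fit called 9 higher and 0 lower, where 0.283% and 0.230% of all genes were. LDHA and BNIP3L were no longer among them, and P4HA1 (0.54) was. The median of the targets was 0.50 in that fit. In TEPA+hypoxia against TEPA, 3 of 19 were called higher over all 12 libraries, ANGPTL4 (1.55), DDIT4 (1.44) and ENO2 (0.89), where 0.0623% of all genes were. In the 10-library fit 12 of 19 were, where 1.32% of all genes were, with a median of 0.62. VEGFA (0.68), KDM3A (0.84), HK2 (0.58) and P4HA1 (0.71) were among these 12. EGLN1 and CITED2, members that are themselves known targets, were not called higher in either of these comparisons, in the fit of all 12 libraries or in that without hypoxia 2 and 3. With the correction for length and GC content EGLN1 was called higher in hypoxia against control in both sets of libraries, at 0.62 and 0.53. In TEPA+hypoxia against hypoxia, 5 targets were called higher and 5 lower over all 12 libraries, where 30.9% and 30.6% of all genes were. ANGPTL4 (-1.41), ANKRD37 (-1.05), ALDOC (-0.87), ADM (-0.74) and BNIP3 (-0.49) were the lower ones. PFKFB3 (3.17), HK2 (1.07), KDM3A (0.96), VEGFA (0.77) and P4HA1 (0.53) were the higher ones. Without hypoxia 2 and 3, ANGPTL4 was at -0.60, ADM at -0.54, BNIP3 at -0.47 and HK2 at 0.53.

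The genes most like a member were those with the smallest root mean square difference in log2 CPM after centring each gene, among 10120 candidates with a mean of at least 5 CPM. Over the 12 libraries API5 was nearest to HIF1A at 0.129, TLE4 to EPAS1 at 0.132, MED13L to EP300 at 0.0624 and ZNF207 to CITED2 at 0.105. Over the 10 libraries without hypoxia 2 and 3 the nearest were FAM196B to HIF1A at 0.0685, SETD1B to EPAS1 at 0.109, GTF2I to EP300 at 0.0479 and GATA2 to CITED2 at 0.0757. The first gene in the list thus differed between the 2 sets of libraries for all 4 members. TLE4 and SETD1B were among the nearest 3 to EPAS1 in both sets, and MED13L among the nearest 3 to EP300. For HIF1A and CITED2 the nearest 3 shared no gene between the sets. For EP300, MED1 of the mediator complex was second over the 10 libraries at 0.0567.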

How the data were processed

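The deposited table holds raw read counts for 51141 gene symbols in 12 libraries, 1 column per library. Per the labels' protocols, RNA was extracted with TRIzol and poly(A) RNA went into a directional library kit. Per the submitters' processing notes, reads were aligned with HISAT2 2.1.0 to GRCh38, and DESeq was used. No source used here names the counter, its annotation or its strand setting.

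Counts were fitted in R 4.3.3 with edgeR 4.0.16: filterByExpr by group (14447 genes, 99.9% of counts), TMM scaling, 1 mean per group over all 12 libraries, and two-sided quasi-likelihood F-tests for 5 contrasts. P-values were Benjamini-Hochberg adjusted over all tested genes, with calls under 0.05. The SE of a log2 fold change was its size divided by the square root of F. A floor of 3 counts is 0.118 to 0.267 CPM per library. The fit was run on simulated counts with known fold changes put into the hypoxia group. Those counts held no outlying libraries and no trend by length or GC content, so they cannot show how the fit handles these. Coordinates, lengths and GC content are from GENCODE 29 on GRCh38, which 30966 symbols matched directly and 872 through another symbol. Promoter sequence is from RefSeq.

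All 10 members are given in every contrast. Genes of the other lists were named where they were called in a comparison described or were listed at or near 0. The members, the lists, the ratios and the libraries left out were chosen with earlier results of these data known. Nothing in the labels says that replicates came from separate cultures, so p-values measure the spread between these libraries, which may be technical. Alternatives were RLE scaling, library totals, no filter, DESeq2 1.42.0, a replicate block, a spline correction for GC content and length, only the 2 groups compared, leaving out hypoxia 2 and 3, and leaving out each library. Library totals, and leaving out hypoxia 2 and 3 with the correction, were chosen after seeing the data. A comparison of protein sequences that had been planned was not run.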

Additional observations from a re-analysis of the deposited data

Results flagged for a closer look

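Of the 10 members, 5 had a response to low oxygen that differed with the chelator, by the interaction test over all 12 libraries, 4 higher and 1 lower. Of all tested genes 17.3% were called higher and 21.5% lower by it. The response with TEPA minus that without it was 1.98 for HIF1A, 1.71 for EP300, 1.24 for CREBBP and 0.63 for ARNT on the log2 scale, and -1.11 for EGLN2. Without hypoxia 2 and 3 each kept its sign, and none was called. With the correction for length and GC content over all 12 libraries, HIF1A and ARNT were not called. Leaving out control 1, control 2, hypoxia 3, TEPA 2 or TEPA+hypoxia 3 alone left 0 members called. Hypoxia 2 and 3 differed from the other 10 libraries in their TMM factors, marker sums and differences by length and GC content, given above. The part of these differences in the 5 results was not tested.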

How the results depend on the processing

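Counts of members called under each alternative are set against 1 higher and 6 lower in hypoxia against control, 0 lower in TEPA+hypoxia against TEPA, 6 higher and 1 lower in TEPA+hypoxia against hypoxia, and 4 higher and 1 lower for the interaction. The correction for GC content and length gave 4 higher in hypoxia against control, 4 lower in TEPA+hypoxia against hypoxia, and 2 higher and 3 lower for the interaction. In the same order, it called 3486, 4047, and 642 and 1986 of 12992 genes. The first fit called 4254, 4420, and 2498 and 3113 of 14447 genes. ARNT lost its call under the correction in each of these comparisons, and EGLN1 was not called higher in TEPA+hypoxia against hypoxia. The same correction with the replicate block gave 3 higher, 4 lower, and 2 higher and 2 lower for the same comparisons. There it called 3161, 3749, and 225 and 888 of 12992 genes. Without hypoxia 2 and 3 there were 0 higher and 2 lower in hypoxia against control, 2 lower in TEPA+hypoxia against TEPA, and 0 higher and 0 lower for the interaction. Adding the correction put HIF1A at -0.79 and EPAS1 at -0.56 in hypoxia against control. The shares of all genes called in both of these fits are given above for hypoxia against control and TEPA+hypoxia against TEPA. Fits of only the 2 groups compared gave 0 higher and 0 lower in hypoxia against control, with adjusted p = 0.0624 for HIF1A and 0.0582 for EPAS1, and 2 lower in TEPA+hypoxia against TEPA. Leaving out 1 library at a time gave 1 to 1 higher and 6 to 7 lower in hypoxia against control, 0 to 2 lower in TEPA+hypoxia against TEPA, 5 to 7 higher and 1 to 2 lower in TEPA+hypoxia against hypoxia, and 0 to 7 higher and 0 to 1 lower for the interaction. The counts of 7, and of 2 lower, came without hypoxia 1, where VHL joined the lower genes in TEPA+hypoxia against hypoxia (-0.26). The 5 higher there came without hypoxia 2, hypoxia 3, TEPA+hypoxia 2 or TEPA+hypoxia 3, where EGLN1 was not called, and the 0 for the interaction without control 1, control 2, hypoxia 3, TEPA 2 or TEPA+hypoxia 3. TEPA against control called 0 members under every alternative. Calls over all genes were not counted for fits of 2 groups or fits leaving out 1 library. Shifts in those counts of members thus cannot be set against all genes.

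Directions reversed under the correction in EGLN1 and HIF1AN, without and with the replicate block. EGLN1 was at 0.62 and 0.62 in hypoxia against control, -0.46 and -0.46 in TEPA+hypoxia against hypoxia, and -0.50 and -0.51 for the interaction. HIF1AN was at 0.77 and 0.76, -0.90 and -0.89, and -0.91 and -0.90. Without hypoxia 2 and 3 and with the correction, EGLN1 was at 0.53 and EGLN2 at -0.049 in hypoxia against control, and EGLN1 at -0.38 and HIF1AN at -0.44 in TEPA+hypoxia against hypoxia. The cause was not tested. Scaling by library totals put the median of all genes at -0.24 in hypoxia against control (-0.01 with TMM) and at 0.31 in TEPA+hypoxia against hypoxia (0.03 with TMM), with 2899 genes called higher and 4833 lower in the first, against 4254 and 4016 with TMM. The replicate block alone changed no count of members. Libraries of the same number did not deviate together (r from -0.36 to 0.32). With deviations from means of 3 libraries, this cannot settle whether the numbers pair them, and the sample titles give only a replicate number.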
